A study of Homo sapiens with 9 samples.

Results

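The genes described here make, bind or break down hyaluronan, a long unbranched sugar polymer of the extracellular matrix. They were taken by symbol: HAS1, HAS2, HAS3, CD44, HMMR, TNFAIP6, VCAN, HYAL1, HYAL2 and CEMIP, which are 10 of the 36385 genes in the deposited table, and the rule uses no measured value. RNA was sequenced from MG-63, an established line from a human osteosarcoma that serves as an osteoblast model, after 7 days on boronized Ti6Al4V/HA (called HA coating), on Ti6Al4V with TiB2 (TiB2) or on Ti6Al4V alone (bare alloy), with 3 libraries per surface. Ti6Al4V is a titanium alloy used for implants and TiB2 is titanium diboride by its formula. The HA of the coating's name is not hyaluronan, and the labels do not spell it out. The medium of all 9 was osteogenic, containing dexamethasone at 100 nM, ascorbic acid at 50 µg/mL and beta-glycerophosphate at 10 mM. The labels assign every library to the same batch and state that the TiB2 libraries did not enter the submitters' final analysis. Whether replicates are separate cultures is not stated in the labels, and the p-values therefore rest on library-to-library spread that may be technical. MG-63 is a tumour line and not a primary osteoblast.

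Hyaluronan is made at the plasma membrane by the synthases HAS1, HAS2 and HAS3, which join alternating glucuronic acid and N-acetylglucosamine units taken from UDP-sugars and push the growing chain out of the cell. The chain is held by cell-surface receptors such as CD44 and by matrix proteins such as versican, and it is cut by hyaluronidases and by CEMIP. In bone and cartilage it forms the pericellular coat, and long and short chains are known for different effects on adhesion and inflammation.

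On the HA coating 4 of the 9 tested genes were higher than on bare alloy: CEMIP 7.33-fold, TNFAIP6 2.83-fold, HAS2 2.41-fold and HMMR 2.32-fold. On TiB2 CEMIP, TNFAIP6 and HMMR were also higher than on bare alloy, by 7.82-fold, 3.74-fold and 1.87-fold, HAS3 was 1.32-fold higher, and CD44 and VCAN were 1.37-fold and 2.16-fold lower. HAS2 on TiB2 overlapped bare alloy. These are edgeR quasi-likelihood tests over all genes with a Benjamini-Hochberg adjusted p under 0.05. Of all genes tested, 9.89% passed for the HA coating against bare alloy and 25.1% for TiB2 against bare alloy. Both comparisons use the same 3 bare alloy libraries, so they are not independent of each other.

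Promoter sequence is shown for the 3 genes that were higher on both coated surfaces, each as the 250 bases before the RefSeq start in GRCh38.p14, 5′ to 3′ on the gene's strand. The windows are chr5:163460382-163460631 for HMMR, chr2:151357342-151357591 for TNFAIP6 and chr15:80779120-80779369 for CEMIP, all on the plus strand. In the deposited coordinates HMMR begins at 163460203 and CEMIP at 80779343. The HMMR window thus lies inside the deposited gene span, and the CEMIP window runs into its own. Capitals mark matches, on either strand, to the CHR element TTTGAA, the CCAAT box CCAAT, the AP-1 motif TGANTCA and the TATA box TATAAA.
HMMR: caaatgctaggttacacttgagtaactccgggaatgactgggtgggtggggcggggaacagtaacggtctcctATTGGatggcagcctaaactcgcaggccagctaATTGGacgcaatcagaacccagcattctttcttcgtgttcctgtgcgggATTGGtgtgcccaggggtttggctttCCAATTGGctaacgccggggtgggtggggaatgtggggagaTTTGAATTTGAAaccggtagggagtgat
TNFAIP6: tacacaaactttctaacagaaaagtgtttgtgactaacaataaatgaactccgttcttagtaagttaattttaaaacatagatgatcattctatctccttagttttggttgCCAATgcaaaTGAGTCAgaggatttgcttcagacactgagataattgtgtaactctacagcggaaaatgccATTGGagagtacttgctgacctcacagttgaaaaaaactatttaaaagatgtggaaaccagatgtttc
CEMIP: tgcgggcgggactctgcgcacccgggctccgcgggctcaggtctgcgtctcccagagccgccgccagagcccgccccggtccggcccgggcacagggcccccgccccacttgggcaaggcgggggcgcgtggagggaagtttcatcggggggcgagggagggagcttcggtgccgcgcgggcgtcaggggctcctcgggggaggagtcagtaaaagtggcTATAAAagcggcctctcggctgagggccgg
The CHR element and CCAAT boxes are known from promoters of genes expressed in G2 and M phase. The HMMR window held TTTGAA at 28 to 23 and at 22 to 17 bases before the start, and CCAAT at 5 places, of which 4 read on the opposite strand. The forward CCAAT at 69 to 65 bases before the start overlaps a reverse one at 66 to 62. TTTGAA was found in 13.32% and CCAAT in 32.01% of 35116 RefSeq windows of the same length. The TNFAIP6 window held the AP-1 motif at 129 to 123 bases before the start, a palindromic match on both strands found in 6.573% of windows, and CCAAT at 139 to 135 and, reversed, at 68 to 64. The CEMIP window held TATAAA at 30 to 25 bases before the start, as did 10.72% of windows somewhere in their length. The NF-kB consensus, found in 5.206% of windows, was in none of the windows of the 9 hyaluronan genes that have a table entry. A match is a run of letters in these windows and was not tested as a binding site.

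The libraries held 60528871 to 72542556 counts on the HA coating, 62951461 to 63413815 on TiB2 and 58464306 to 63122541 on bare alloy, and the 3 counts that a value of 0 allows for correspond to 0.0414 to 0.0513 CPM (counts scaled to library size), which covers counting error only. Rows in the ribosomal DNA region of chromosome 21 took 0.0832% to 0.197% of counts in the 6 coated libraries, against 6.48% in bare alloy replicate 1 and 1.07% and 0.617% in replicates 2 and 3. Each library's deviations from the mean of its own surface were fitted with a trend on GC content and transcript length. That trend took 29.1%, 22.3% and 15.1% of their variance in the HA coating libraries, against 1.40% to 6.25% in the other 6. Replicates differed beyond sampling noise in every pair, with a median squared deviation of 78.4 to 122 times the Poisson value on the HA coating, 15.7 to 19.2 times on TiB2 and 15.0 to 21.4 times on bare alloy. The HA coating libraries thus differed most from each other. Levels are the deposited FPKM, read counts scaled to gene length and library size. Because these are bulk samples, fewer cells of a type and less RNA per cell cannot be told apart.

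**Figure D1:**
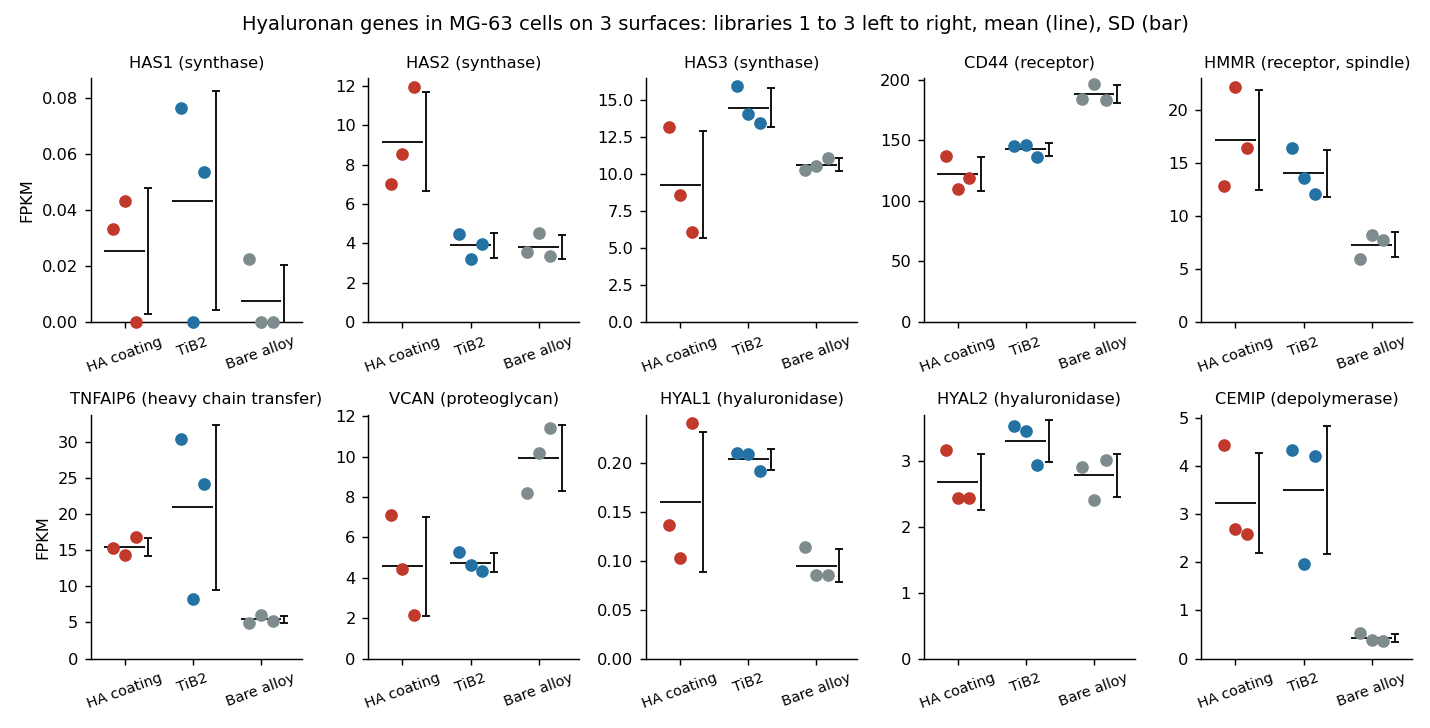
FPKM (y axis, linear from 0) of each of the 10 hyaluronan genes in the HA coating, TiB2 and bare alloy libraries, with libraries 1 to 3 as points from left to right, the mean as a line and the SD as a bar (n = 3). CEMIP and TNFAIP6 were higher in every coated library than in any bare alloy library, and HAS2 only in the HA coating libraries.

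The synthases were represented by HAS2 and HAS3, with HAS1 next to absent. HAS2 (ENSG00000170961, GRCh38 chromosome 8, 121612116 to 121641440, minus strand) is the synthase known for long chains and is the main one in many mesenchymal cells. It had 7.03, 8.56 and 12.0 FPKM in the HA coating libraries, 4.50, 3.22 and 3.96 FPKM on TiB2, and 3.56, 4.51 and 3.33 FPKM on bare alloy. Every HA coating library lay above all others, while TiB2 and bare alloy overlapped. Averages were 9.18 ± 2.52, 3.89 ± 0.639 and 3.80 ± 0.625 FPKM for the HA coating, TiB2 and bare alloy (SD, n = 3 each). Against bare alloy the log2 fold change on the HA coating was 1.27 ± 0.25 (SE; edgeR adjusted p = 0.0166). That call was lost when any single bare alloy library was left out, with a log2 fold change of 1.16 to 1.39 and an adjusted p of 0.0586 to 0.0916. With an offset for GC content and length HAS2, whose GC fraction of 0.369 is low, kept a log2 fold change of 0.96 with an adjusted p of 0.0127. On TiB2 against bare alloy the value was -0.01 ± 0.16 (adjusted p = 0.961). Between the coated surfaces HAS2 was 1.28 ± 0.25 higher on the log2 scale on the HA coating than on TiB2, at an edgeR adjusted p of 0.0661 that misses the threshold. The antisense gene HAS2-AS1, on the opposite strand, overlaps HAS2 over 2148 bases and had 189, 244 and 341 counts on the HA coating, 187, 118 and 167 on TiB2, and 155, 196 and 222 on bare alloy. Whether counting used strand is not given in the sources used here, and reads from the shared bases cannot be told apart.

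HAS3 (ENSG00000103044, chromosome 16, 69105653 to 69117660, plus strand), the synthase known for high activity and shorter chains, was ordered differently. It had 13.2, 8.59 and 6.04 FPKM on the HA coating, 15.9, 14.0 and 13.4 FPKM on TiB2, and 10.2, 10.5 and 11.1 FPKM on bare alloy. The 3 TiB2 libraries were above all others, and the HA coating libraries spread across the bare alloy range, with replicate 1 highest and replicate 3 lowest, the reverse of HAS2 in the same libraries. On TiB2 HAS3 rose by a log2 fold change of 0.40 ± 0.09 against bare alloy (edgeR adjusted p = 0.00861). With all 9 libraries in 1 fit that call was lost (adjusted p = 0.298). On the HA coating the log2 fold change against bare alloy was -0.23 ± 0.24 (adjusted p = 0.566), and without HA coating replicate 1 it was -0.54 with an adjusted p of 0.0395. Against TiB2 it was -0.63 ± 0.24 (adjusted p = 0.371).

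HAS1 (ENSG00000105509, chromosome 19, 51713112 to 51723968, minus strand), a synthase of low activity, had 5, 7 and 0 counts on the HA coating, 12, 0 and 8 on TiB2, and 4, 0 and 0 on bare alloy. It failed the filter on low counts and was not tested; at this depth a difference was not detectable.

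Since FPKM is per length, the 3 synthases can be set side by side within a library, but FPKM is not corrected for GC content. HAS2 and HAS3 have GC fractions of 0.369 and 0.527. The GC and length trend took most variance in the HA coating libraries, and its part in the shares below was not tested. HAS2 supplied 34.8%, 49.8% and 66.4% of the summed synthase FPKM on the HA coating, 21.9%, 18.7% and 22.7% on TiB2, and 25.8%, 30.0% and 23.1% on bare alloy. HAS3 was thus the more abundant synthase transcript in every TiB2 and bare alloy library, while on the HA coating it led in replicate 1, was level with HAS2 in replicate 2 and was exceeded by it in replicate 3. The mean HAS2 share was 50.3% ± 15.8 on the HA coating, against 26.3% ± 3.50 on bare alloy (SD, n = 3 each), a difference of 24.0 percentage points that was 16.0 to 31.8 when 1 library was left out. The groups did not overlap, and the exact two-sided permutation test gave p = 0.1, the smallest that 3 against 3 libraries allow. Against TiB2, at 21.1%, the difference was 29.2 points with the same exact p of 0.1. The summed synthase level was 20.2, 17.2 and 18.0 FPKM on the HA coating, 20.5, 17.3 and 17.5 FPKM on TiB2, and 13.8, 15.0 and 14.4 FPKM on bare alloy. Both coated surfaces lay above bare alloy in every library, and they overlapped each other. The sum was 4.04 FPKM higher on the HA coating and 3.97 FPKM higher on TiB2 than on bare alloy, each with an exact permutation p of 0.1.

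**Figure D2:**
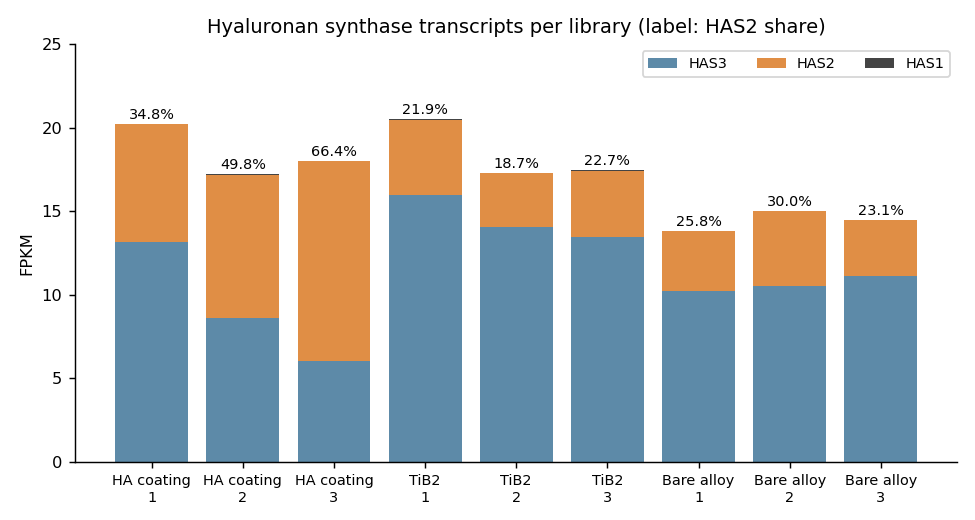
Stacked bars give the FPKM of HAS3, HAS2 and HAS1 in each of the 9 libraries (y axis, linear from 0), with the HAS2 share of the sum printed above. The sums are alike on the HA coating and TiB2, whereas the HAS2 share is 34.8% to 66.4% on the HA coating, 18.7% to 22.7% on TiB2 and 23.1% to 30.0% on bare alloy.

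Among the proteins that bind the chain, CD44 was by far the most abundant and was lower on the coated surfaces. CD44 (ENSG00000026508, chromosome 11, 35138882 to 35232402, plus strand) is the main cell-surface hyaluronan receptor. It had 137, 110 and 119 FPKM on the HA coating, 145, 146 and 137 FPKM on TiB2, and 185, 197 and 183 FPKM on bare alloy. All 6 coated libraries lay below all bare alloy libraries. On TiB2 CD44 fell by 0.45 ± 0.09 on the log2 scale against bare alloy (edgeR adjusted p = 0.00483), a call lost with all 9 libraries in 1 fit (adjusted p = 0.0759). CD44 on the HA coating had a log2 fold change against bare alloy of -0.64 ± 0.19, at an edgeR adjusted p of 0.0626 that misses the threshold. DESeq2 gave -0.63 with an adjusted p of 0.00687 for that comparison. The deposited values are per gene, so the CD44 isoforms were not analysed here.

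VCAN (ENSG00000038427, chromosome 5, 83471618 to 83582303, plus strand) encodes versican, a large proteoglycan that binds hyaluronan through its amino-terminal domain. It had 7.09, 4.43 and 2.16 FPKM on the HA coating, 5.26, 4.65 and 4.34 FPKM on TiB2, and 8.20, 10.2 and 11.4 FPKM on bare alloy. Every coated library was below every bare alloy library, and the HA coating libraries were spread more widely than those of TiB2. On TiB2 VCAN fell by 1.11 ± 0.10 on the log2 scale (edgeR adjusted p = 8.34e-05). For the HA coating the log2 fold change was -1.16 ± 0.34 with an edgeR adjusted p of 0.0612. Without HA coating replicate 1, the library with the highest VCAN of its surface, it was -1.61 with an adjusted p of 0.00809. DESeq2 gave an adjusted p of 0.00237, and the fit with the GC and length offset 0.0360.

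HMMR (ENSG00000072571, chromosome 5, 163460203 to 163491941, plus strand), also called RHAMM, binds hyaluronan at the cell surface and, inside the cell, the mitotic spindle. It had 12.9, 22.2 and 16.4 FPKM on the HA coating, 16.4, 13.6 and 12.1 FPKM on TiB2, and 5.95, 8.19 and 7.70 FPKM on bare alloy. The coated libraries were all above the bare alloy libraries and overlapped each other. HMMR rose by a log2 fold change of 1.22 ± 0.21 on the HA coating (edgeR adjusted p = 0.00897) and 0.90 ± 0.13 on TiB2 (adjusted p = 0.000942), each against bare alloy. The HMMR call on the HA coating was lost without bare alloy replicate 1 (1.13, adjusted p = 0.0510) or replicate 3 (1.23, adjusted p = 0.0528). With the GC and length offset the log2 fold change on the HA coating was 0.87 (edgeR adjusted p = 0.00249), at a GC fraction of 0.367.

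HMMR moved beside genes of mitosis. Of a list of 9 such genes, 7 were higher and 0 lower on the HA coating than on bare alloy, with a median log2 fold change of 1.12, against 0.02 over all genes tested. On TiB2 all 9 were higher, with a median of 0.88, against 0.00178 over all genes tested. The share of all genes called higher was 5.02% on the HA coating and 12.9% on TiB2. On the HA coating CCNB1, the cyclin that starts mitosis, was 2.83-fold higher (edgeR adjusted p = 0.00304), its kinase CDK1 2.70-fold (0.00582), the spindle kinase AURKA 2.56-fold (0.00189) and the checkpoint kinase BUB1 2.39-fold (0.00265). MKI67 had a log2 fold change of 0.50 ± 0.38 (adjusted p = 0.432) and BRCA1 of 0.67 ± 0.23 (adjusted p = 0.0972), and neither passed. Patterns were also compared by the root mean square difference of log2 CPM centred over the 9 libraries. Nearest to HMMR among 11367 genes lay RFC3 at 0.09, NEIL3 at 0.10 and ECT2 at 0.10, none of them on that list. HMMR itself varied by 0.56. Such likeness is a description over 9 libraries that share surfaces and depth.

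TNFAIP6 (ENSG00000123610, chromosome 2, 151357592 to 151380046, plus strand) encodes TSG-6, a secreted protein that binds hyaluronan and transfers heavy chains of inter-alpha-inhibitor onto it, and it is known as a gene induced by inflammatory cytokines. It had 15.3, 14.3 and 16.8 FPKM on the HA coating, 30.4, 8.26 and 24.2 FPKM on TiB2, and 4.99, 6.01 and 5.24 FPKM on bare alloy. The HA coating libraries were close together, the TiB2 libraries were not, and all 6 exceeded bare alloy. The log2 fold change against bare alloy was 1.50 ± 0.18 on the HA coating (edgeR adjusted p = 0.00228) and 1.90 ± 0.38 on TiB2 (adjusted p = 0.00588). With the GC and length offset the value on the HA coating was 1.05 (edgeR adjusted p = 0.0126), at a GC fraction of 0.367. Without TiB2 replicate 2, the lowest of its surface, the TiB2 value was 2.29, and limma on log2(FPKM + 0.1) gave 1.74 with an adjusted p of 0.0501 that misses the threshold. Between the HA coating and TiB2 it was -0.40 ± 0.38 (adjusted p = 0.684).

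The breakdown enzymes were led by CEMIP, which differed more from bare alloy than any other of the 9 tested genes. CEMIP (ENSG00000103888, chromosome 15, 80779343 to 80951776, plus strand), also called KIAA1199 or HYBID, is a protein needed for hyaluronan depolymerization by fibroblasts. It had 4.43, 2.68 and 2.59 FPKM on the HA coating, 4.32, 1.96 and 4.20 FPKM on TiB2, and 0.522, 0.383 and 0.374 FPKM on bare alloy. The lowest coated library, TiB2 replicate 2, was well above the highest bare alloy library. CEMIP rose by a log2 fold change of 2.87 ± 0.28 on the HA coating (edgeR adjusted p = 0.000839) and 2.97 ± 0.31 on TiB2 (adjusted p = 0.000179). Leaving out single libraries kept the log2 fold change on the HA coating between 2.62 and 3.11, and with the GC and length offset it was 3.03. Between the coated surfaces the difference was -0.10 ± 0.31 (adjusted p = 0.920). MESD, on the opposite strand, overlaps CEMIP over 5488 bases and had 3056, 3045 and 4225 counts on the HA coating, 3136, 2897 and 2884 on TiB2, and 3042, 3398 and 3139 on bare alloy. MESD counts overlapped between each coated surface and bare alloy, except that HA coating replicate 3 lay above all others.

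Set against the synthase in the same library, the log2 ratio of CEMIP to HAS2 FPKM was -1.52 ± 0.78 on the HA coating, -0.23 ± 0.43 on TiB2 and -3.16 ± 0.39 on bare alloy (SD, n = 3 each). The ratio exceeded that of bare alloy in all 6 coated libraries. It is not corrected for GC content, at GC fractions of 0.531 for CEMIP and 0.369 for HAS2. The differences from bare alloy were 1.64 on the HA coating and 2.93 on TiB2, each with an exact two-sided permutation p of 0.1, the smallest possible. Between the HA coating and TiB2 the difference was -1.29, the libraries overlapped and the exact permutation p was 0.2.

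HYAL2 (ENSG00000068001, chromosome 3, 50317790 to 50322782, minus strand), an anchored hyaluronidase that cuts long chains, had 3.17, 2.44 and 2.44 FPKM on the HA coating, 3.54, 3.46 and 2.95 FPKM on TiB2, and 2.92, 2.42 and 3.02 FPKM on bare alloy. The groups overlapped, with log2 fold changes against bare alloy of -0.08 ± 0.20 on the HA coating and 0.20 ± 0.14 on TiB2 (edgeR adjusted p = 0.836 and 0.356). TUSC2 shares 2756 bases of its strand with HYAL2, so these values are uncertain. HYAL1 (ENSG00000114378, chromosome 3, 50299890 to 50304116, minus strand), the lysosomal hyaluronidase, was low, with 27, 21 and 58 counts on the HA coating, 45, 43 and 40 on TiB2, and 23, 18 and 17 on bare alloy. TiB2 lay above bare alloy in every library, at a log2 fold change of 1.02 ± 0.41 that did not pass (adjusted p = 0.103). For the HA coating it was 0.72 ± 0.56 (adjusted p = 0.439), with replicate 3 the highest.

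**Figure D3:**
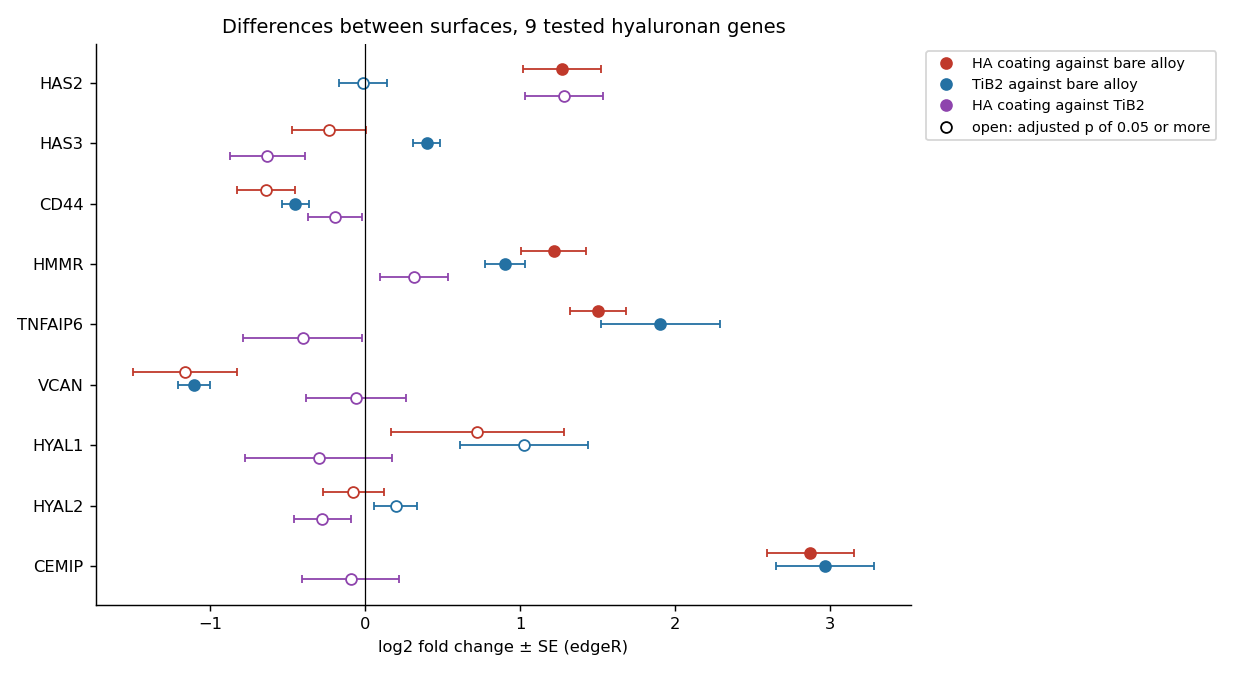
Points give the edgeR log2 fold change (x axis, bars are SE) of the 9 tested hyaluronan genes for the HA coating against bare alloy, TiB2 against bare alloy and the HA coating against TiB2. Filled points have an adjusted p under 0.05, and the largest values are those of CEMIP at 2.87 and 2.97.

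Read together, 4 of the 9 tested genes were called for the HA coating against bare alloy, 4 higher and 0 lower, beside 5.02% of all genes called higher and 4.88% lower. Without bare alloy replicate 1, 2 remained, TNFAIP6 and CEMIP, as they did without replicate 3. Over all genes these fits called 857 of 21150 and 601 of 21006, against 1990 of 20117 with all 6 libraries. Bare alloy replicate 1 had the most ribosomal DNA counts. Unlike replicates 2 and 3, it also resembled the HA coating libraries in the marker genes CD3E and CLDN4, described below. Without HA coating replicate 1 there were 7: the 4, all higher, and HAS3, CD44 and VCAN, all lower. Calls over all genes also rose in that fit, to 4185 of 21075. For TiB2 against bare alloy 6 of 9 were called, 4 higher and 2 lower, beside 12.9% of all genes called higher and 12.2% lower. The median log2 fold change of the 9 was 0.72 on the HA coating and 0.40 on TiB2, while over all genes tested it was 0.02 and 0.00178. In CPM after TMM scaling, the libraries did not overlap for 6 of 9 genes between the HA coating and bare alloy (34.5% of all genes tested) and for 7 of 9 between TiB2 and bare alloy (42.1%). In a test of any difference among the 3 surfaces, 6 of the 9 passed, where 14.7% of all genes did: HAS2, CD44, HMMR, TNFAIP6, VCAN and CEMIP.

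Between the coated surfaces 0 of the 9 genes passed edgeR's threshold, where 0.632% of all genes did. The smallest unadjusted edgeR p-values of the 9 were 0.000533 for HAS2 and 0.0261 for HAS3. How many of all genes reach such values was not counted. DESeq2 called HAS2 (adjusted p = 0.000181) in a fit that called 490 of 34182 genes. On the same CPM scale the libraries did not overlap for 3 of 9 genes (18.1% of all genes tested), with HAS2 higher (8.54% of all genes) and HAS3 and CD44 lower (9.51%) on the HA coating than on TiB2. In FPKM the CD44 libraries of these surfaces did overlap, with 137 FPKM in HA coating replicate 1 and 137 FPKM in TiB2 replicate 3. Without HA coating replicate 1 edgeR called HAS2 (1.46, adjusted p = 0.0233) and HAS3 (-0.95, adjusted p = 0.0310). That fit called 1224 of 20951 genes, against 127 of 20086 with all 6 libraries. With all 6 libraries the differences for HMMR, TNFAIP6, VCAN, HYAL1, HYAL2 and CEMIP lay between -0.40 and 0.31 on the log2 scale, with standard errors of 0.18 to 0.48, and leaving out single libraries widened this to -0.82 for HYAL1 and 0.49 for HMMR.

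The enzymes that supply UDP-sugars to the synthases were partly higher on both coated surfaces. Of 7 such genes 4 rose and 0 fell on the HA coating, with a median log2 fold change of 0.57. The same count held on TiB2 with a median of 0.29. Over all genes tested 5.02% were called higher on the HA coating and 12.9% on TiB2, and the medians were 0.02 and 0.00178. UGP2, which makes UDP-glucose, was 1.98-fold higher on the HA coating (edgeR adjusted p = 0.0322) and 1.42-fold higher on TiB2 (adjusted p = 0.00326). UGDH, which oxidizes UDP-glucose to UDP-glucuronic acid, had 9.92, 9.80 and 9.86 FPKM on the HA coating, 11.2, 10.5 and 10.2 FPKM on TiB2, and 6.51, 6.62 and 6.47 FPKM on bare alloy. It was 1.49-fold higher on the HA coating (adjusted p = 0.0457) and 1.57-fold on TiB2 (adjusted p = 0.000664). On the N-acetylglucosamine branch, UAP1, which makes the UDP-sugar, was 1.90-fold higher on the HA coating (adjusted p = 0.0308), and GNPNAT1, the acetyltransferase, 1.56-fold (adjusted p = 0.0326). UAP1 had 40.0, 62.9 and 63.3 FPKM on the HA coating, against 26.4, 31.3 and 28.8 FPKM on bare alloy. GFPT1, the enzyme that commits sugar to this branch, had a log2 fold change of 0.04 ± 0.15 (adjusted p = 0.892), and its relative GFPT2 of -0.61 ± 0.18 (adjusted p = 0.0667).

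**Figure D4:**
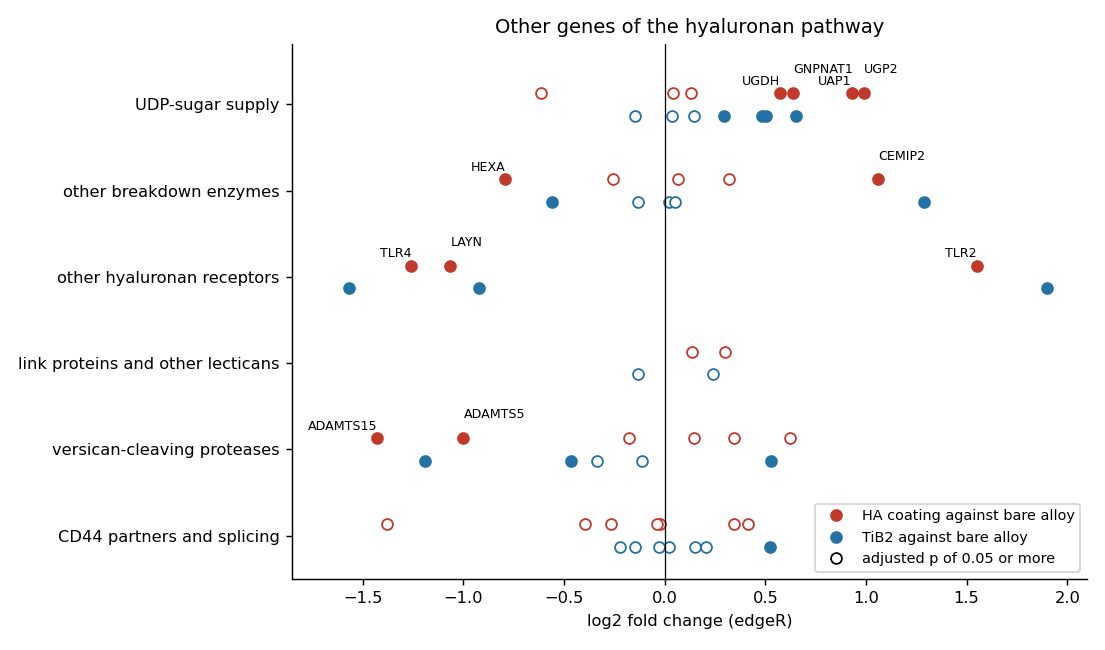
Each point is a tested gene of 6 further pathway lists, at its edgeR log2 fold change (x axis) for the HA coating against bare alloy or TiB2 against bare alloy. Filled points have an adjusted p under 0.05, and genes called on the HA coating are named. In the UDP-sugar list the called genes lie right of 0, and in the list of versican-cleaving proteases those called on the HA coating lie left of it.

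Among 5 other breakdown enzymes in the table, 1 rose and 1 fell on each coated surface. Either way, 9.89% of all genes tested were called on the HA coating and 25.1% on TiB2. CEMIP2, a relative of CEMIP, had 2.83, 2.82 and 2.32 FPKM on the HA coating, 2.98, 3.17 and 3.36 FPKM on TiB2, and 1.16, 1.29 and 1.30 FPKM on bare alloy. It was 2.08-fold higher on the HA coating (edgeR adjusted p = 0.00441) and 2.44-fold higher on TiB2 (adjusted p = 1.46e-05). HEXA, a lysosomal hexosaminidase subunit that trims the ends of hyaluronan fragments, was 1.73-fold lower on the HA coating (adjusted p = 0.0181) and 1.47-fold lower on TiB2 (adjusted p = 0.000207). HYAL4 and SPAM1 were not analysed here.

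Of 6 further receptors 3 were tested, and all 3 differed on each coated surface. The share of all genes called was 9.89% on the HA coating and 25.1% on TiB2. TLR2, a pattern receptor reported to respond to hyaluronan fragments, had 1.20, 1.45 and 1.39 FPKM on the HA coating against 0.376, 0.417 and 0.562 FPKM on bare alloy, 2.93-fold higher (edgeR adjusted p = 0.00441). LAYN, a membrane receptor that binds hyaluronan, had 4.33, 3.44 and 5.13 FPKM on the HA coating against 8.16, 8.94 and 9.82 FPKM on bare alloy, 2.09-fold lower (adjusted p = 0.0160). TLR4, named after its values were seen, was lower at under 1 FPKM in every library, by a log2 fold change of -1.26 ± 0.22 on the HA coating (adjusted p = 0.00898) and -1.57 ± 0.18 on TiB2 (adjusted p = 0.000263). On TiB2 TLR2 was higher by 1.90 ± 0.21 (adjusted p = 0.000253) and LAYN lower at -0.92 ± 0.13 (adjusted p = 0.00103).

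For the lists that follow, 4.88% of all genes were called lower on the HA coating and 12.2% on TiB2, with 9.89% and 25.1% in either direction. Of 6 tested proteases known to cleave versican, 2 fell and 0 rose on the HA coating: ADAMTS15 was 2.69-fold lower (edgeR adjusted p = 0.0134) and ADAMTS5 2.00-fold lower (adjusted p = 0.0168). On TiB2, among 5 tested, these 2 also fell, with log2 fold changes of -1.19 and -0.47, and ADAMTS4 rose by 0.53 ± 0.17 (adjusted p = 0.0464, named after its values were seen). None of 7 tested CD44 partners and splicing factors passed on the HA coating, and 1 did on TiB2, ADAM10, a protease that sheds CD44, at 0.53 ± 0.09 (adjusted p = 0.00269, also named after its values were seen). Of the 2 tested link proteins and lecticans, HAPLN3 and BCAN, 0 passed on either surface. Of the 3 tested genes for heavy chains, bikunin and pentraxin 3, 0 passed on the HA coating. On TiB2 ITIH5, named after its values were seen, passed with 0 counts in all 3 libraries against 44, 33 and 31 on bare alloy.

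TNFAIP6 and CEMIP stood beside inflammatory genes. Of 8 genes known as NF-kB targets, 7 rose on the HA coating with a median log2 fold change of 1.68, and all 8 rose on TiB2 with a median of 1.81. Over all genes tested the medians were 0.02 and 0.00178, and 5.02% and 12.9% were called higher. The list was chosen with earlier results of these data known. CXCL8, a neutrophil chemokine, had 61.5, 92.8 and 118 FPKM on the HA coating, 139, 53.1 and 140 FPKM on TiB2, and 1.55, 2.14 and 1.95 FPKM on bare alloy. It was 48.1-fold higher on the HA coating (edgeR adjusted p = 5.17e-05), IL6 13.2-fold (0.000306), the prostaglandin synthase PTGS2 9.55-fold (5.47e-05) and the monocyte chemokine CCL2 3.26-fold (0.00375). On TiB2 replicate 2 was the lowest of its 3 libraries for CXCL8, as it was for TNFAIP6 and CEMIP. On the HA coating the orders differed: replicate 1 was lowest for CXCL8 and highest for CEMIP, and replicate 2 was lowest for TNFAIP6. By the distance described for HMMR, SRGN at 0.31, SLC39A8 at 0.31 and TLR2 at 0.37 lay nearest to TNFAIP6, which varied by 0.90. Nearest to CEMIP, which varied by 1.40, lay ZC3H12A at 0.35, PTGS2 at 0.39 and SLC16A6 at 0.39. HAS2 lay nearest to HSCB at 0.19, ATP5MK at 0.23 and AK6 at 0.24, itself varying by 0.65. HSCB had 8.35, 9.64 and 13.7 FPKM on the HA coating, 5.82, 5.35 and 5.13 FPKM on TiB2, and 4.91, 5.12 and 4.98 FPKM on bare alloy. Both HSCB and HAS2 were highest in HA coating replicate 3. The GC and length trend took 29.1%, 22.3% and 15.1% of the variance in HA coating replicates 1, 2 and 3, and its part in this likeness was not tested.

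**Figure D5:**
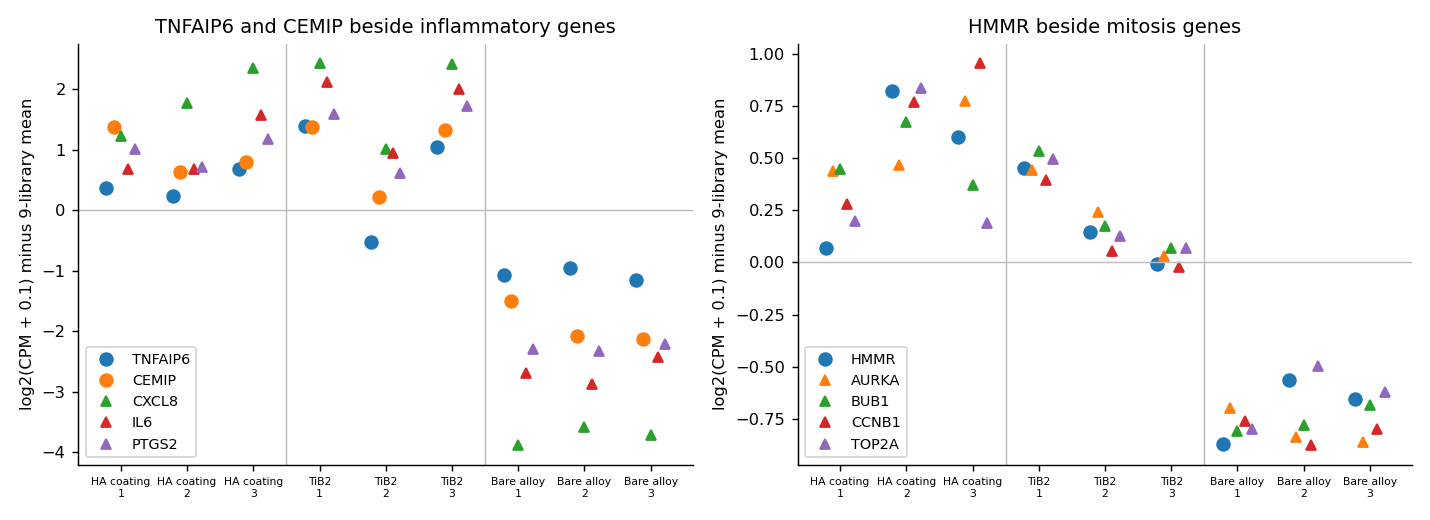
For each of the 9 libraries (x axis), log2(CPM + 0.1) minus the gene's mean over the 9 libraries (y axis) is shown for TNFAIP6 and CEMIP beside CXCL8, IL6 and PTGS2 (left) and for HMMR beside AURKA, BUB1, CCNB1 and TOP2A (right). Circles are hyaluronan genes and triangles the other genes. All genes shown lie lower in the bare alloy libraries than in the coated ones.

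Markers of other cell types gave the following levels. The 6 osteoblast and mesenchymal markers were all detected and summed to 967 to 1499 FPKM on the HA coating, 1396 to 1493 FPKM on TiB2 and 2455 to 2839 FPKM on bare alloy. Of these, COL1A2 (4.41-fold), COL1A1 (2.68-fold), PDGFRB (2.59-fold) and SPARC (2.31-fold) were lower on the HA coating than on bare alloy (edgeR adjusted p = 0.00432, 0.0446, 0.0238 and 0.00862). VIM at -0.70 ± 0.25 and RUNX2 at 0.46 ± 0.30 on the log2 scale did not pass (adjusted p = 0.112 and 0.354). On TiB2 5 of the 6 fell, and RUNX2 rose by 0.67 ± 0.20 (adjusted p = 0.0373). The share of all genes called lower was 4.88% on the HA coating and 12.2% on TiB2. The labels call the line epithelial-like: the 6 epithelial markers summed to 34.3 to 47.8 FPKM on the HA coating, 42.7 to 47.0 FPKM on TiB2 and 28.2 to 40.8 FPKM on bare alloy, carried by KRT8 and KRT18, while EPCAM and CDH1 were under 0.5 FPKM in every library. CLDN4, also of the epithelial list, had 276, 269 and 261 counts on the HA coating, 26, 44 and 52 on TiB2, and 261, 37 and 29 on bare alloy. It was 6.53-fold higher on the HA coating than on TiB2 (edgeR adjusted p = 0.00524). The 6 T cell markers summed to 0.00612 to 0.0245 FPKM on the HA coating, 1.74 to 2.2 FPKM on TiB2 and 0.0210 to 1.70 FPKM on bare alloy. The defining CD3E was at 0 in all HA coating libraries and in bare alloy replicate 1, with 105 to 160 counts on TiB2 and 103 and 91 in bare alloy replicates 2 and 3. The 6 macrophage markers summed to 27.6 to 41.2 FPKM on the HA coating, 37.2 to 44.3 FPKM on TiB2 and 30.8 to 38.3 FPKM on bare alloy, mostly from CD68. LYZ had 47, 20 and 0 counts and CD163 had 20, 10 and 0 on the HA coating, and both were at 0 in all TiB2 and bare alloy libraries. Endothelial markers summed to 1.84 to 2.17 FPKM on the HA coating, 1.66 to 1.77 FPKM on TiB2 and 4.55 to 5.71 FPKM on bare alloy. CDH5 was 11.2-fold lower on the HA coating (0.348 against 3.83 FPKM on average, adjusted p = 0.00125), and the other 4 tested did not pass, with log2 fold changes from -0.83 for CLDN5 to 2.66 ± 0.89 for KDR (adjusted p = 0.0933). The 5 chondrocyte markers in the table summed to 2.22 to 3.04 FPKM, 2.37 to 3.35 FPKM and 3.58 to 4.39 FPKM on the HA coating, TiB2 and bare alloy. SOX9 was 2.80-fold lower on the HA coating (adjusted p = 0.0117), and COL11A2 at -0.04, MATN1 at 0.94 and MATN3 at -0.61 on the log2 scale did not pass. In CD3E and CLDN4 bare alloy replicate 1 resembled the HA coating libraries, and bare alloy replicates 2 and 3 resembled TiB2. Between the HA coating and TiB2 this split coincides with the surface, and between the HA coating and bare alloy it does so in part. The part of this split and of these levels in the values of the hyaluronan genes was not tested.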

How the data were processed

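The authors deposited raw counts and FPKM per gene and library. The submitters' processing notes list, in no order, the GRCh38 build, featureCounts 2.0.1, StringTie 2.1.4, HISAT2 2.2.1, limma and cutadapt 2.10. Deposited FPKM followed the deposited counts (log2 ratio SD 0.000753, median over 12299 genes).

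Groups came from sample titles. Each comparison used its 6 libraries: edgeR 4.0.16 (R 4.3.3) with filterByExpr, TMM and the quasi-likelihood test, two-sided, Benjamini-Hochberg adjusted over all genes, threshold 0.05. The SE is the log2 fold change over the square root of F. Alternatives were RLE scaling, no filter, DESeq2 1.42.0, limma 3.58.1 on log2(FPKM + 1) or log2(FPKM + 0.1) and at a mean FPKM of at least 1, all 9 libraries in 1 fit, a replicate block, a GC and length offset (GENCODE 29, GC for 94.66% of genes), leaving out each library, and bare alloy replicate 1 alone. The edgeR step was tested on simulated data. Promoters came from RefSeq (GRCh38.p14), which matched 9 of 10 genes.

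The genes and lists were chosen with earlier results of these data known. Named genes were all 10, up to 4 called per list with mean FPKM of at least 1 and no overlap on the HA coating against bare alloy (2 in the other comparisons for UDP-sugar and breakdown lists), and the 3 nearest patterns.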

Additional observations from a re-analysis of the deposited data

How the results depend on the processing

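The 423 values under an alternative were those of single genes, and the HAS2 share of synthase FPKM with single libraries left out. For 381 nothing changed: genes kept direction and side of the threshold, and the share stayed within the pooled SD of the libraries. Among the genes' values 15 gained a call, 11 lost one and 16 turned sign, all of the 16 without a call. For the HA coating against bare alloy, 4 genes were called; leaving out single libraries gave 2 to 7, and bare alloy replicate 1 alone, the library with the most ribosomal DNA counts, gave 1, CEMIP, in a fit whose spread comes from the HA coating libraries only, with the lone library assumed to vary like them. For TiB2 against bare alloy, 6 became 4 with all 9 libraries in 1 fit (HAS3 and CD44 lost), and limma on log2(FPKM + 0.1) lost TNFAIP6 and gained HYAL1; without single libraries the same 6 were called. Between the coated surfaces, 0 became 1 with DESeq2, 1 with a replicate block (HAS2, adjusted p = 0.0339), and 0 to 2 without single libraries. For any surface, 6 became 3 to 7 without single libraries. Deviations of samples with the same replicate number had correlations of -0.16 to 0.16. Deviations from means of 3 libraries cannot settle whether a number marks a shared culture or run, and the labels do not say. The replicate block left 4 calls for the HA coating and 6 for TiB2 against bare alloy. Values that turned sign were those of HYAL2 on the HA coating against bare alloy (0.13 with the GC and length offset; -0.190 to 0.0188 without single libraries), HAS2 on TiB2 against bare alloy (0.0268 and 0.0268 with limma on log2(FPKM + 1), over all genes and at a mean FPKM of at least 1; 0.0327 on log2(FPKM + 0.1); 0.00418 with the offset; -0.14 to 0.11 without single libraries), and between the HA coating and TiB2 HMMR (-0.0491 with the offset), CEMIP (0.0640 with the offset; -0.383 to 0.0884 without single libraries) and VCAN (-0.51 to 0.24 without single libraries). The causes were not tested. Over all genes, calls for the HA coating against bare alloy numbered 1990, and 1093 without the filter, 3324 with DESeq2, 3518 with all 9 libraries in 1 fit, 3169 with the offset, 286 against bare alloy replicate 1 alone, and 598 to 4185 without single libraries, the highest without HA coating replicate 1. For TiB2 against bare alloy they numbered 5059, and 2132 with all 9 libraries in 1 fit. Between the coated surfaces they numbered 127, and from 35 without the filter to 490 with DESeq2, and 49 to 1224 without single libraries, the highest again without HA coating replicate 1. For any surface they numbered 3124, and 2018 without the filter and 1364 to 6409 without single libraries. Depth limits HAS1 and HYAL1, which had 0 to 58 counts.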
